A study of Mus musculus with 23 samples.

Results

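This comparison sets tumour pieces from mice given an IL-27 vector against pieces from mice given an empty vector, where every piece was kept ex vivo with an antibody to PD-L1. It was defined by the sample labels alone and holds 4 of the 23 libraries of the study, 2 with each vector. The tumours grew under the skin of each flank of male C57/BL6 mice aged 8 to 10 weeks from TC2ras, the TRAMP-C2 line of mouse prostate adenocarcinoma after transduction with a lentivirus for activated H-ras. The hosts were intact inbred mice, with no deletion or transgene named in the labels. All mice had plasmid driven by ultrasound into the tibialis anterior muscle at 10 µg per muscle, so the vectors were given to muscle and not to the tumour. The control plasmid was pTSTA-ctrl, and the IL-27 plasmid was pTSTA-IL27pepL, which joins IL-27 to a short peptide called pepL. Poly(A) RNA from tumour sections was sequenced on stranded, paired-end libraries after an RNA integrity number of at least 8. Sources used here give no dose or duration for the antibody. Whether the replicates of a group are separate animals is not labelled, so the spread behind each p-value is that between samples and may be technical.

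IL-27 is a cytokine made of a subunit encoded by Il27 and a partner encoded by Ebi3, and myeloid cells are its usual source. It binds a receptor of Il27ra and Il6st, which signals through the kinases Jak1 and Jak2 to transcription factors of the STAT family. IL-27 is known for driving interferon-type genes in T cells, natural killer (NK) cells and tumour cells. PD-L1, encoded by Cd274, is an interferon-inducible ligand that restrains T cells through PD-1, encoded by Pdcd1. An antibody to PD-L1 releases that restraint, and in tumours its action depends on T cells being present.

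Library totals in the comparison were 70814518 to 79046141 estimated counts, against 47641781 to 83088346 over the 23 libraries. Levels below are CPM, counts scaled to a common library total after TMM scaling, where 3 counts in 1 library correspond to 0.0369 to 0.0427 CPM, and they are not corrected for gene length. Empty vector replicate 2 stood apart from the other 3 libraries in base composition and in the share of genes differing by more than 2-fold. Its levels leaned most on base composition, with a slope of log2 level on GC fraction of -5.10, while the other slopes were -0.31, 0.93 and 1.17. Between the empty vector libraries 10.6% of 13750 genes differed by more than 2-fold, compared with 5.53% between the IL-27 vector libraries and 6.34% between empty vector replicate 1 and IL-27 vector replicate 2. By Pearson's r of log2 levels, IL-27 vector replicate 1 had the lowest values with the controls, at 0.914 and 0.917, beside 0.938 between the controls. Transcripts of tissues next to a tumour also varied from piece to piece. The skeletal muscle markers summed to 36.7 and 577 CPM with the empty vector and to 1058 and 854 CPM with the IL-27 vector. The keratinocyte markers summed to 735 CPM in IL-27 vector replicate 1 and to 3.75 to 8.69 CPM in the other 3. The erythroid markers summed to 446 CPM in IL-27 vector replicate 2 and to 21.2 to 25.0 CPM in the other 3. Neutrophil granule gene Ngp was at 15.3 CPM in empty vector replicate 2 and at 0 in the other 3. Ngp was also at 14.7 and 14.1 CPM in the empty vector libraries with cabozantinib plus IL-27. In the IL-27 vector libraries in media it was at 18.8 and 16.7 CPM, and every remaining library held at most 0.119 CPM. Of all libraries, the empty vector pair with cabozantinib plus IL-27 correlated best with empty vector replicate 2 (Pearson's r 0.962 and 0.956). What the libraries with Ngp share was not tested. These bulk values cannot separate fewer cells of a type from less RNA per cell.

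**Figure D1:**
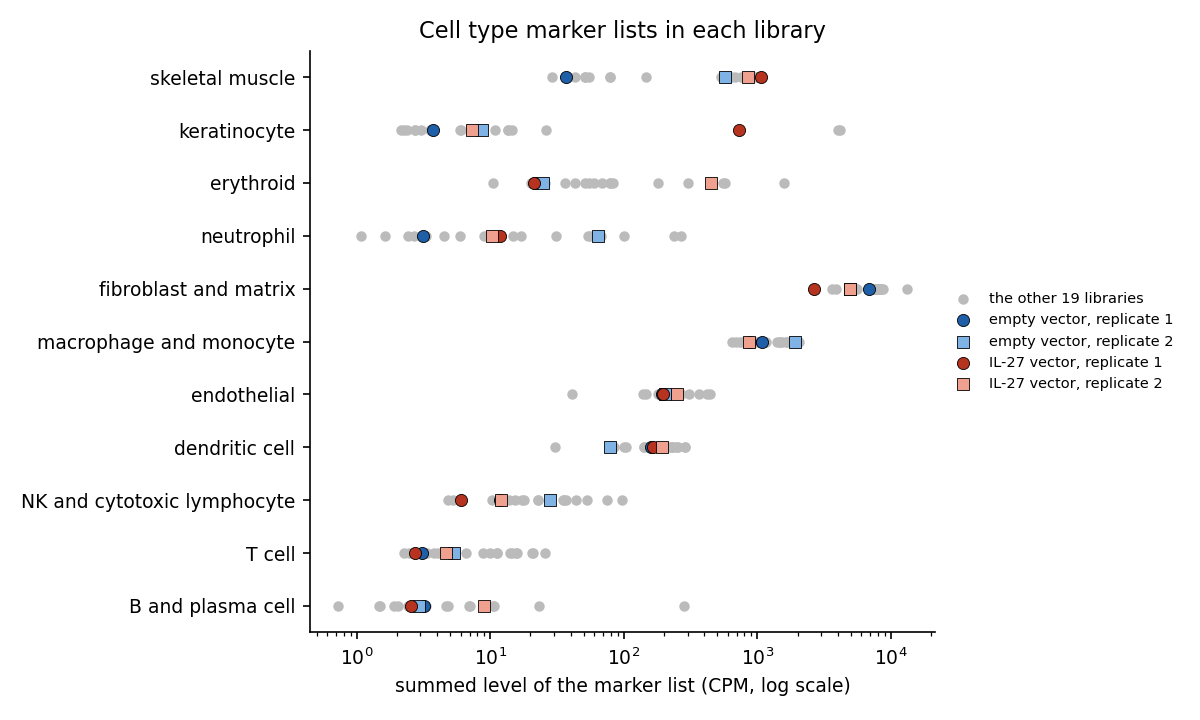
Summed level of each cell type marker list (horizontal axis, CPM on a log scale) in the 4 anti-PD-L1 libraries (coloured) and in the other 19 libraries (grey), one row per list. The keratinocyte sum of IL-27 vector replicate 1, the erythroid sum of IL-27 vector replicate 2 and the low skeletal muscle sum of empty vector replicate 1 lie far from the other coloured points of their rows. For skeletal muscle the other empty vector libraries had a median of 66.5 CPM, nearer replicate 1 than replicate 2.

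The label "prostate adenocarcinoma" was checked against prostate epithelial markers. Pbsn, which encodes the secreted protein probasin of luminal prostate epithelium, had 0 counts in all 4 libraries, which allows up to 3 counts each. That marker was not detected in these libraries. Of the 9 listed prostate genes 7 were tested, and 5 of these averaged under 1 CPM, while the whole list summed to 81.7 and 72.4 CPM with the empty vector and to 61.8 and 72.1 CPM with the IL-27 vector. Some listed genes were thus expressed, and these values do not settle the label. Hras, the family member the cells were engineered with, was at 20.4 and 21.2 CPM with the empty vector and at 24.0 and 18.2 CPM with the IL-27 vector, and the files do not say whether the transduced copy is counted in it. The proliferation gene Mki67 was at 230 and 192 CPM with the empty vector and at 189 and 252 CPM with the IL-27 vector.

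No gene passed the test. Of 24440 genes tested with edgeR's quasi-likelihood method, 0 (0%) had an adjusted p under 0.05, and every adjusted p was 1. At an unadjusted p under 0.05, called nominal below, there were 834 genes, 3.41% of those tested, which is fewer than the threshold alone would let through if no gene differed. They were 588 genes higher with the IL-27 vector (2.41%) and 246 lower (1.01%). DESeq2, run as an alternative, called 44 of 19637 genes (0.224%), of which 33 were higher, 11 were lower and 40 had levels that did not overlap between the groups. By level alone, both IL-27 vector libraries lay above both empty vector libraries for 4128 genes (16.9%) and below both for 3818 (15.6%), and the counts of list members below are read against these shares. The median log2 difference over all genes was 0. No difference named below is a call by the main test, and values are given as measurements, with the standard error (SE) after ± where one is printed.

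The 24 leading genes were the 12 with the smallest p in each direction among genes of at least 1 CPM whose groups did not overlap and differed by at least 1 on the log2 scale. The leading higher genes encode parts of stratified epithelium, heat shock proteins, histones or mitochondrial proteins. The leading lower genes were more varied and included matrix, secreted and receptor proteins. All 24 were nominal, none was called by edgeR, and DESeq2 called all 12 higher genes and 5 of the 12 lower genes.

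**Figure D2:**
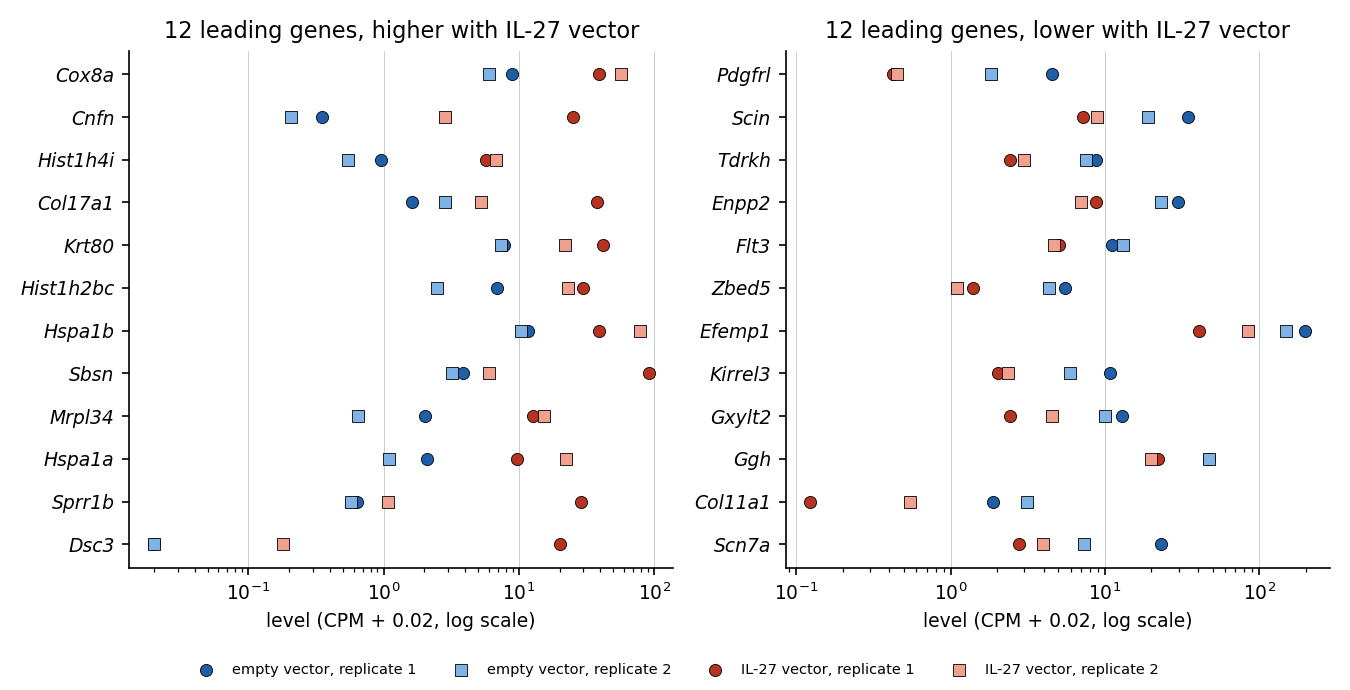
Levels (horizontal axes, CPM plus 0.02, log scale) of the 12 leading genes in each direction, one point per library. The groups do not overlap for any gene because that was a condition of the choice. IL-27 vector replicate 1 is over 2-fold above replicate 2 for 5 of the 12 higher genes, Cnfn, Col17a1, Sbsn, Sprr1b and Dsc3.

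Cox8a, a subunit of cytochrome c oxidase at chr19:7215153-7217616 (GRCm38, minus strand), had the smallest p of all genes. It was at 8.82 and 6.02 CPM with the empty vector and at 39.4 and 56.7 CPM with the IL-27 vector, a log2 difference of 2.69 ± 0.58 (SE; edgeR adjusted p = 1; DESeq2 adjusted p = 0.00664). Both IL-27 vector libraries were several-fold above both controls. Mrpl34, a protein of the mitochondrial ribosome, was at 1.99 and 0.626 CPM with the empty vector and at 12.7 and 15.4 CPM with the IL-27 vector (3.41 ± 0.81). Of the 17 listed nuclear genes of oxidative phosphorylation, 5 had higher and 2 had lower non-overlapping levels, with a median log2 difference of 0.10. Cox6a1, another cytochrome c oxidase subunit, was at 14.0 and 7.66 CPM with the empty vector and at 37.7 and 36.6 CPM with the IL-27 vector (1.78 ± 0.70, nominal), and it was the only member of that list with an unadjusted p under 0.05. Among the 13 mitochondrially encoded genes, 4 lay above without overlap, none lay below, and 3 reached an unadjusted p under 0.05. The gene mt-Nd6, encoding a subunit of complex I, was at 178 and 176 CPM with the empty vector and at 612 and 386 CPM with the IL-27 vector (1.50 ± 0.55, nominal). Without IL-27 vector replicate 1 the median of these 13 genes was -0.02 in place of 0.30 and none was nominal. The difference of the mitochondrially encoded list thus rested on that library. Cox8a and Mrpl34 were high in both, but lying above both controls in both libraries was a condition of their choice as leading genes.

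Transcripts of the IL-27 ligand were close to the detection limit in the tumours. Il27 had 4 and 3 counts with the empty vector and 4 and 13 counts with the IL-27 vector. Ebi3 had 0 and 23 counts with the empty vector and 10 and 20 counts with the IL-27 vector. The plasmid was delivered to leg muscle, and these counts are of tumour RNA. Il27ra, the ligand-specific receptor chain, was at 3.96 and 2.05 CPM with the empty vector and at 2.04 and 2.65 CPM with the IL-27 vector (-0.36 ± 0.61), and the groups overlapped.

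Of the 15 listed genes of IL-27 signalling, none was nominal, and 3 lay above and 4 below without overlap. Their median log2 difference was -0.30. Their summed level was 684 and 711 CPM with the empty vector and 506 and 672 CPM with the IL-27 vector, so both IL-27 vector libraries were below both controls. Without Jak1, the member of highest level, the sums were 496 and 484 CPM against 358 and 505 CPM and overlapped. Socs1, a feedback inhibitor of JAK kinases, was at 0.172 and 0.769 CPM with the empty vector and at 1.34 and 1.48 CPM with the IL-27 vector (1.58 ± 0.94). Socs3, the feedback inhibitor on the Il6st chain, was at 38.8 and 33.8 CPM with the empty vector and at 35.0 and 61.3 CPM with the IL-27 vector (0.41 ± 0.61). Il12rb2, a receptor chain of cytotoxic and helper T cells, had at most 0.0807 CPM in any of the 4. Tbx21, a transcription factor of the same cells, was at 0.199 CPM in empty vector replicate 2 and at 0 in the other 3.

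The antibody's target was transcribed in every library. Cd274 was at 13.1 and 34.5 CPM with the empty vector and at 11.6 and 28.0 CPM with the IL-27 vector (-0.26 ± 0.77). Without empty vector replicate 2 the difference was 0.60. The spread between replicates, over 2-fold with each vector, exceeded the difference between vectors. Its receptor Pdcd1 had 0 counts in 3 libraries and 8 counts in IL-27 vector replicate 2. Of the 18 checkpoint ligands and receptors, none was nominal, none lay above and 4 lay below without overlap, with a median of -0.14. Cd47, the ligand that restrains engulfment by macrophages, was at 176 and 181 CPM with the empty vector and at 145 and 136 CPM with the IL-27 vector (-0.35 ± 0.22). Lgals9, encoding galectin-9, was at 43.2 and 48.7 CPM with the empty vector and at 17.5 and 32.5 CPM with the IL-27 vector (-0.88 ± 0.60). Cd86, a co-stimulatory ligand of antigen-presenting cells, was at 2.30 and 13.1 CPM with the empty vector and at 2.89 and 3.56 CPM with the IL-27 vector, so its high value was in empty vector replicate 2 alone. The 6 Fc receptor genes, which bind the constant part of antibodies, summed to 68.2 and 196 CPM with the empty vector and to 82.0 and 90.6 CPM with the IL-27 vector, with 1 member lower without overlap.

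T cell transcripts were near the detection limit with either vector. Of 18 T cell markers, 17 averaged under 1 CPM, and their sum was 3.06 and 5.40 CPM with the empty vector and 2.74 and 4.69 CPM with the IL-27 vector. Cd3e, part of the T cell receptor complex, had 0 and 5 counts with the empty vector and 4 and 12 counts with the IL-27 vector. Cd4 had 0 and 19 counts with the empty vector and 18 and 12 counts with the IL-27 vector. Cd8a had 4 counts in empty vector replicate 2 and 0 in the other 3, and Ifng had 0 counts in all 4. Differences in T cell genes were not detectable at this depth, apart from 1 marker with an unadjusted p under 0.05. That marker was Cd3g, at 0.441 CPM in empty vector replicate 2 and at 0 in the other 3. Of the 6 regulatory T cell markers, 1 lay above without overlap, and Foxp3, their lineage factor, was at 0.935 and 0.484 CPM with the empty vector and at 0.633 and 0.821 CPM with the IL-27 vector.

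Perforin, granzyme B and granzymes C to G had lower levels in both IL-27 vector libraries. Prf1 (chr10:61297833-61304680, plus strand) encodes perforin, which opens the target cell membrane. It was at 2.10 and 5.95 CPM with the empty vector and at 0.168 and 0.296 CPM with the IL-27 vector, a log2 difference of -4.11 ± 1.47 (SE, nominal). Gzmb (chr14:56258838-56262260, minus strand) encodes granzyme B, the main death-inducing protease of cytotoxic T and NK cells. It was at 2.34 and 11.2 CPM with the empty vector and at 1.01 and 1.36 CPM with the IL-27 vector (-2.52 ± 1.55). For both genes the controls themselves differed by over 2-fold, with empty vector replicate 2 higher.

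The 5 measured granzymes C to G are proteases encoded beside Gzmb on chromosome 14, and activated mouse cytotoxic lymphocytes and NK cells express them. Their summed level was 52.1 and 74.1 CPM with the empty vector and 7.06 and 0.861 CPM with the IL-27 vector. All 5 lay below without overlap and all 5 were nominal, with a median log2 difference of -3.99. Gzmc (chr14:56231441-56234656, minus strand) was at 10.1 and 18.2 CPM with the empty vector and at 1.29 and 0.484 CPM with the IL-27 vector (-3.99 ± 1.31, nominal). Gzmd (chr14:56129556-56132608, minus strand) was at 10.8 and 15.9 CPM with the empty vector and at 1.60 and 0.161 CPM with the IL-27 vector (-3.92 ± 1.24, nominal). Gzme was at 3.98 and 7.15 CPM with the empty vector and at 0.297 and 0.215 CPM with the IL-27 vector (-4.43 ± 1.41, nominal). Gzmf and Gzmg ranged from 13.3 to 17.4 CPM with the empty vector, from 1.60 to 2.27 CPM in IL-27 vector replicate 1, and were at 0 in replicate 2. The unadjusted count fell from 5 to 4 of 5 without empty vector replicate 2, and was 1 of 5 without IL-27 vector replicate 2. In the other ex vivo conditions the median vector difference of these genes was also below 0, at -0.66 in media, -2.40 with cabozantinib, -0.95 with IL-27 and -2.35 with cabozantinib plus IL-27. With docetaxel it was -10.9, a fitted size that is no bound because IL-27 vector libraries there held genes at 0 counts. The sums separated the vectors with cabozantinib, docetaxel and cabozantinib plus IL-27. They overlapped in media, at 7.44 and 31.1 CPM against 3.91 and 17.7 CPM, and with IL-27, at 71.2 and 12.1 CPM against 21.9 CPM in its only IL-27 vector library. None of the 5 genes departed from the mean of the other conditions at an unadjusted p under 0.05. These genes share sequence: 19.8 to 21.9% of the 50-base stretches of Gzmd, Gzme and Gzmg also occur in another family member, so how counts were split among them is uncertain, while Gzmb shares none.

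Other markers of cytotoxic lymphocytes were mixed or barely detected. Of the 11 NK and cytotoxic lymphocyte markers tested, 3 lay below and none above without overlap (Prf1, Gzmb and Eomes), and their median log2 difference was -0.10. Eomes, a transcription factor of NK and memory T cells, was at 1.48 and 1.64 CPM with the empty vector and at 0.633 and 1.01 CPM with the IL-27 vector (-0.92 ± 0.76). Ncr1, a defining NK receptor, was at 0 in 3 libraries and at 0.323 CPM in IL-27 vector replicate 2. The granule genes Gzma and Nkg7, named after their values were seen, were at 0 in replicate 1 of each vector and overlapped. Gzma was at 0.370 CPM in empty vector replicate 2 and at 0.538 CPM in IL-27 vector replicate 2, and Nkg7 at 0.171 and 0.215 CPM. Klrd1, an NK receptor chain, was at 0 and 0.968 CPM with the empty vector and at 0 and 0.202 CPM with the IL-27 vector. The source of the granzyme transcripts was not tested.

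The type I interferon response was lower with the IL-27 vector in most of its genes, though only 2 of 24 reached an unadjusted p under 0.05. These genes encode antiviral effectors, RNA sensors and the factors that induce them. Their sum was 304 and 548 CPM with the empty vector and 126 and 273 CPM with the IL-27 vector. Without overlap, 15 of the 24 (62.5%) lay below and none above, with a median log2 difference of -1.25. Mx1, an antiviral GTPase, was at 4.85 and 11.1 CPM with the empty vector and at 0.710 and 1.12 CPM with the IL-27 vector (-3.12 ± 1.30, nominal). Cmpk2, an interferon-induced nucleotide kinase, was at 3.53 and 18.98 CPM with the empty vector and at 0.800 and 1.98 CPM with the IL-27 vector (-3.02 ± 1.39, nominal). Rsad2, encoding viperin, was at 4.16 and 49.9 CPM with the empty vector and at 2.76 and 8.26 CPM with the IL-27 vector, so its groups overlapped, and its difference of -2.29 ± 1.30 was 0.41 without empty vector replicate 2. The lowest values were in IL-27 vector replicate 1, which was below both controls for 23 of 24 members, while replicate 2 was below both for 15. Over all genes tested these shares were 25.8% for replicate 1 and 26.0% for replicate 2.

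The size of this difference depended on single libraries. The median was -0.74 without empty vector replicate 2 and -0.73 without IL-27 vector replicate 1, and 0 members were nominal. It was -1.54 without empty vector replicate 1 and -2.28 without IL-27 vector replicate 2. Against empty vector replicate 1 alone, both IL-27 vector libraries were lower for 15 of 24 members, beside 29.4% of all genes.

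**Figure D3:**
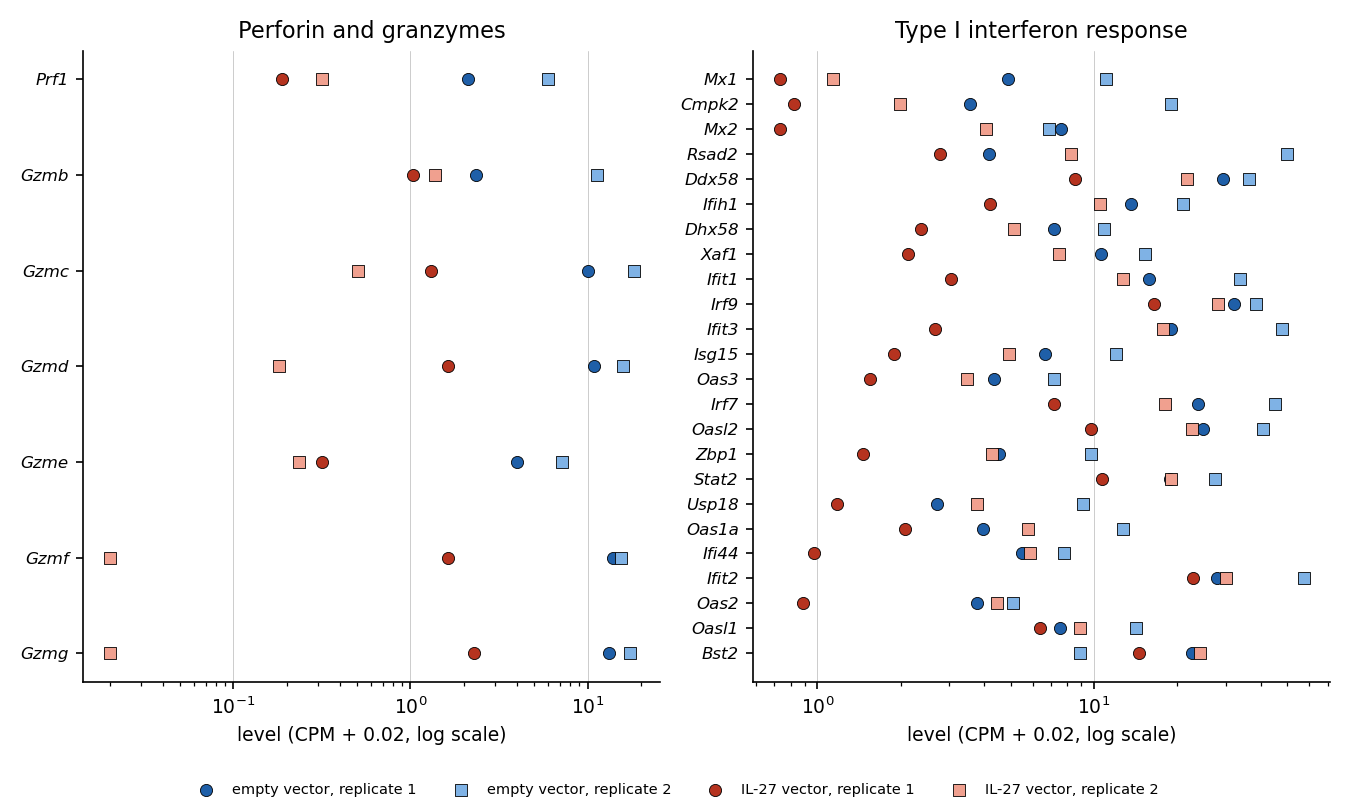
Levels (horizontal axes, CPM plus 0.02, log scale) of perforin and the granzymes (left) and of the 24 type I interferon response genes, ordered by p (right), one point per library. The 5 granzymes C to G, Gzmb and Prf1 separate the vectors, with Gzmf and Gzmg at 0 in IL-27 vector replicate 2. Among the interferon genes IL-27 vector replicate 1 is below both controls for 23 of 24 (25.8% of all genes tested). Replicate 2 often lies near empty vector replicate 1.

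In the other ex vivo conditions the median over these genes was above 0. The mean of the 5 other vector differences had a median of 1.20 over the 24 members. By condition the median was 2.93 in media, 1.37 with cabozantinib, 0.64 with docetaxel, 0.71 with IL-27 and 0.29 with cabozantinib plus IL-27. The IL-27 condition has only 1 IL-27 vector library, so its differences, and its share in the mean of 5, rest on that library. The summed levels of the 2 vectors separated in media, with docetaxel and with IL-27. In media these sums were 183 and 180 CPM with the empty vector and 210 and 1710 CPM with the IL-27 vector. Replicate 1 was thus close to the controls there, and the sums differed mainly in replicate 2. With cabozantinib they overlapped, at 242 and 214 CPM with the empty vector and at 122 and 920 CPM with the IL-27 vector, so the higher level there was in replicate 2 alone. With cabozantinib plus IL-27 they overlapped too, at 279 and 1073 CPM against 1067 and 714 CPM. The vector difference under anti-PD-L1 was then tested against the mean of the other 5, which come from other libraries. No gene of 24440 was called by edgeR (0%; smallest adjusted p = 1). At an unadjusted p under 0.05 there were 382 genes, 258 of them (1.06%) lower under anti-PD-L1, and DESeq2 called 11. Of the 24 interferon genes, 14 were among the 258. Mx1 differed from the mean of the other conditions by -4.20 ± 1.44 on the log2 scale, Cmpk2 by -4.41 ± 1.56 and Rsad2 by -3.61 ± 1.46, with an adjusted p of 1 for each in edgeR. The count of 14 became 1 without empty vector replicate 2 and 0 without IL-27 vector replicate 1. It was 14 without empty vector replicate 1, 16 without IL-27 vector replicate 2, and 9 without the media library of highest interferon sum, IL-27 vector replicate 2 in media.

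Genes induced mainly by interferon-gamma also had a median below 0, with more overlap between the vectors. The 16 listed GTPases and chemokines summed to 68.9 and 147 CPM with the empty vector and to 23.2 and 70.2 CPM with the IL-27 vector, and IL-27 vector replicate 2 overlapped empty vector replicate 1. None was nominal, 5 lay below and 1 above without overlap, and the median was -1.16. Against empty vector replicate 1 alone, both IL-27 vector libraries were lower for 5 of 16 (31.2%), near the 29.4% of all genes, and the median of IL-27 vector replicate 2 minus that library was 0.24. Cxcl10, a chemokine that attracts T cells through Cxcr3, was at 21.0 and 37.8 CPM with the empty vector and at 4.96 and 19.5 CPM with the IL-27 vector (-1.26 ± 0.87). Cxcl9, its close relative, was at 0.603 and 1.14 CPM with the empty vector and at 0.258 and 0.834 CPM with the IL-27 vector (-0.67 ± 1.25). Gbp4, a guanylate-binding protein, was at 0.640 and 2.22 CPM with the empty vector and at 0.232 and 0.471 CPM with the IL-27 vector, and its vector difference was -4.36 ± 1.37 from the mean of the other 5 conditions (nominal). Irgm1, an immunity-related GTPase, was at 17.1 and 30.6 CPM with the empty vector and at 6.70 and 14.9 CPM with the IL-27 vector, and this distance was -2.15 ± 0.89 (nominal). Of the 16, 8 departed from the other conditions at an unadjusted p under 0.05, all lower, and this count was 1 without empty vector replicate 2 and 1 without IL-27 vector replicate 1.

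Antigen presentation genes showed no unadjusted p under 0.05. Of 13 genes of MHC class I presentation, 2 lay below and none above without overlap, and of 10 of class II, 2 lay above and none below. B2m, the light chain of class I molecules, was at 407 and 593 CPM with the empty vector and at 292 and 372 CPM with the IL-27 vector (-0.59 ± 0.48). H2-Eb1, a class II chain, was at 1.51 and 1.41 CPM with the empty vector and at 1.79 and 5.50 CPM with the IL-27 vector (1.32 ± 1.03).

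Macrophage markers had the highest sum of the immune cell marker lists. The 18 macrophage and monocyte markers summed to 1091 and 1926 CPM with the empty vector and to 888 and 864 CPM with the IL-27 vector, so both IL-27 vector sums were below both controls. Without Spp1, the member of highest level, the sums were 442 and 1329 CPM against 584 and 598 CPM and overlapped. Their median log2 difference was -0.33, with 2 members lower and none higher without overlap. Without empty vector replicate 2 that median was 0.29. In both IL-27 vector libraries 9 of 18 members lay above empty vector replicate 1 and 2 below, beside 31.0% and 29.4% of all genes. Spp1, encoding the secreted protein osteopontin, was at 648 and 597 CPM with the empty vector and at 304 and 266 CPM with the IL-27 vector (-1.13 ± 0.49, nominal). Spp1 had the closest agreement within groups of the macrophage genes named here, and tumour cells can also express it. Lyz2, encoding lysozyme, was at 123 and 365 CPM with the empty vector and at 154 and 103 CPM with the IL-27 vector, with its high value in empty vector replicate 2. C1qb, a complement chain of tissue macrophages, was at 21.1 and 24.2 CPM with the empty vector and at 16.9 and 10.8 CPM with the IL-27 vector (-0.71 ± 0.65).

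Dendritic cell markers were mixed, with 3 of 12 above and 1 below without overlap. Flt3, the receptor that supports dendritic cell growth, was at 11.1 and 13.1 CPM with the empty vector and at 5.01 and 4.67 CPM with the IL-27 vector (-1.32 ± 0.36; DESeq2 adjusted p = 0.0197). Fscn1, an actin-bundling protein that tumour cells also make, was at 139 and 48.6 CPM with the empty vector and at 150 and 172 CPM with the IL-27 vector. The 12 neutrophil markers summed to 3.11 and 64.0 CPM with the empty vector and to 11.8 and 10.3 CPM with the IL-27 vector. All 4 neutrophil genes with an unadjusted p under 0.05 were highest in empty vector replicate 2, and none remained lower at that threshold without it. Chemokines that attract neutrophils showed no unadjusted p under 0.05. Cxcl1 was at 24.7 and 36.9 CPM with the empty vector and at 26.7 and 146 CPM with the IL-27 vector (1.48 ± 0.79), and the high value was in replicate 2 alone. Of the 12 CC chemokines, 1 lay above and 3 below without overlap.

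Most immediate early genes were at higher levels with the IL-27 vector. These genes encode transcription factors, among them the JUN and FOS families, that cells switch on within minutes of growth factor signals, stress or handling. The 15 genes summed to 1273 and 740 CPM with the empty vector and to 1653 and 2101 CPM with the IL-27 vector. Without overlap, 10 of 15 lay above and none below, and 7 were nominal, all higher, with a median of 0.99. Jun was at 54.2 and 25.8 CPM with the empty vector and at 81.0 and 131 CPM with the IL-27 vector (1.41 ± 0.42, nominal). Junb was at 14.8 and 0.769 CPM with the empty vector and at 47.6 and 104 CPM with the IL-27 vector (3.28 ± 1.00, nominal). Both genes were lowest in empty vector replicate 2 and highest in IL-27 vector replicate 2. Ier2, a short-lived nuclear regulator, was at 12.8 and 2.32 CPM with the empty vector and at 34.8 and 36.1 CPM with the IL-27 vector (2.23 ± 0.76, nominal). Fosb was at 8.11 and 12.7 CPM with the empty vector and at 34.3 and 29.0 CPM with the IL-27 vector (1.60 ± 0.55, nominal), and here empty vector replicate 2 was not the lowest. Not every member separated the vectors: Egr1, a zinc finger factor with the same kinetics, was at 126 and 102 CPM with the empty vector and at 81.8 and 167 CPM with the IL-27 vector (0.12 ± 0.40), and is named here after its values were seen.

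Empty vector replicate 2 carried part of this difference. Without it, 2 of 15 genes were nominal and the median was 0.47. Without IL-27 vector replicate 2 the count was 4. With an offset for GC content the count was 6 and the median 0.88. Against empty vector replicate 1 alone, both IL-27 vector libraries were higher for 10 of 15, beside 31.0% of all genes.

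A pair of inducible heat shock genes was among the leading higher genes. Hspa1a and Hspa1b encode near-identical HSP70 chaperones that refold damaged proteins, and heat, proteotoxic stress and tissue handling induce them through the factor HSF1. Their promoters are shown because both genes differed in the same way and their start regions are almost the same sequence. Each window runs from 250 bases before to 50 bases after the annotated start (RefSeq, GRCm38.p6, minus strand, 5′ to 3′). Capitals mark the match to GAANNTTC, a pair of facing heat shock element units in which N is any base:
Hspa1a (chr17:34972107-34972406): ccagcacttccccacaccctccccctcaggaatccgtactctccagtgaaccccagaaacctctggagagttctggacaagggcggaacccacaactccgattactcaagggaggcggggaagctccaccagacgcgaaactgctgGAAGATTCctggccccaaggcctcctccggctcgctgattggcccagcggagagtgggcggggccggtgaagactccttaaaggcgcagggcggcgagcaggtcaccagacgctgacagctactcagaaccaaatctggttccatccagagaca
Hspa1b (chr17:34959189-34959488): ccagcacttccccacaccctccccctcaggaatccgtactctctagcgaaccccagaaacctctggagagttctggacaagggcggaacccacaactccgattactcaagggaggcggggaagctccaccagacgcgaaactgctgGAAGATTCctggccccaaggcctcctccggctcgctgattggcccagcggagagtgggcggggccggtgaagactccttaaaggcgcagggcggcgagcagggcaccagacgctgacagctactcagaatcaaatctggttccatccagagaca

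The windows were identical at 296 of 300 positions (98.7%), and each held 1 match at the same place. GAANNTTC or the reverse arrangement TTCNNGAA occurred in 15.1% of 32851 mouse promoter windows of this kind, so the match is a description only. Both motifs read the same on either strand. Hspa1b (chr17:34956436-34959238, minus strand) was at 11.6 and 10.3 CPM with the empty vector and at 39.0 and 78.8 CPM with the IL-27 vector (2.43 ± 0.57; DESeq2 adjusted p = 0.0197). Hspa1a (chr17:34969190-34972156, minus strand) was at 2.07 and 1.07 CPM with the empty vector and at 9.60 and 22.2 CPM with the IL-27 vector (3.34 ± 0.80). The controls lay close together for Hspa1b, and IL-27 vector replicate 2 was the highest for both genes. With an offset for GC content the log2 differences were 2.03 for Hspa1b and 2.94 for Hspa1a. Of the 50-base stretches of Hspa1a and Hspa1b, 58.8% and 62.3% occur in the other gene, so the split of counts between them is uncertain. They were the only 2 of the 14 heat shock genes with an unadjusted p under 0.05. Over the list 5 lay above and 2 below without overlap, the median was 0.10, and the sum was 12230 and 13240 CPM with the empty vector and 11480 and 12170 CPM with the IL-27 vector. Cryab, a small heat shock protein also abundant in muscle, was at 64.0 and 79.8 CPM with the empty vector and at 108 and 136 CPM with the IL-27 vector (0.76 ± 0.44).

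Summed levels of mitosis genes were slightly higher in both IL-27 vector libraries, at 1770 and 1916 CPM with the empty vector and at 2170 and 2144 CPM with the IL-27 vector. Of 16 mitosis genes, 8 lay above and none below without overlap, and 3 were nominal, with a median log2 difference of 0.17. Of 15 DNA replication genes, 9 lay above and none below, 1 was nominal, and the median was 0.21. Ube2c, the ubiquitin-conjugating enzyme of the anaphase-promoting complex, was at 39.2 and 34.4 CPM with the empty vector and at 87.6 and 79.9 CPM with the IL-27 vector (1.19 ± 0.36, nominal), and it lay 1.02 ± 0.39 above the mean of the other 5 conditions (nominal). Aurkb, a kinase of chromosome segregation, was at 57.2 and 56.7 CPM with the empty vector and at 89.5 and 84.5 CPM with the IL-27 vector (0.61 ± 0.24, nominal). In these genes the replicates of each vector lay close together and the groups were separate. They were named for the smallest p of their list, a choice that favours this. Cdt1, which licenses replication origins, was at 48.1 and 18.3 CPM with the empty vector and at 94.3 and 85.2 CPM with the IL-27 vector (1.43 ± 0.51, nominal). Against empty vector replicate 1 alone, both IL-27 vector libraries were higher for 13 of 16 mitosis genes and 13 of 15 replication genes, beside 31.0% of all genes. Leaving out any one of the 4 libraries left 1 or 2 mitosis genes with an unadjusted p under 0.05.

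Histone genes of the replication-dependent cluster were among the leading genes, although such transcripts mostly lack poly(A) tails. Hist1h4i, encoding a histone H4, was at 0.935 and 0.527 CPM with the empty vector and at 5.68 and 6.78 CPM with the IL-27 vector (3.09 ± 0.68). Hist1h2bc, encoding a histone H2B, was at 6.83 and 2.45 CPM with the empty vector and at 29.7 and 23.2 CPM with the IL-27 vector (2.51 ± 0.57). Of 14 p53 target genes, 6 lay above and 2 below without overlap and 2 were nominal. Aen, a p53-induced nuclease, was at 15.3 and 13.0 CPM with the empty vector and at 29.3 and 27.2 CPM with the IL-27 vector (0.99 ± 0.37, nominal). Cdkn1a, the cell cycle inhibitor, was at 209 and 188 CPM with the empty vector and at 305 and 309 CPM with the IL-27 vector (0.63 ± 0.33).

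Matrix genes had their lowest summed level in IL-27 vector replicate 1. The 16 fibroblast and matrix genes summed to 6892 and 4957 CPM with the empty vector and to 2674 and 4911 CPM with the IL-27 vector. Without overlap 6 lay below and none above, 3 were nominal, and the median was -0.42. Dcn, encoding the collagen-binding proteoglycan decorin, was at 1251 and 1202 CPM with the empty vector and at 763 and 770 CPM with the IL-27 vector (-0.68 ± 0.30, nominal). Lum, encoding lumican of the same family, was at 48.5 and 54.5 CPM with the empty vector and at 26.5 and 32.2 CPM with the IL-27 vector (-0.81 ± 0.36, nominal). Postn, encoding the matrix protein periostin, was at 414 and 468 CPM with the empty vector and at 144 and 269 CPM with the IL-27 vector (-1.09 ± 0.49, nominal). Decorin and lumican showed tight replicates with each vector, but genes were named for the smallest p of the list, which favours this. The median of the list was -0.10 without IL-27 vector replicate 1 and -1.07 without IL-27 vector replicate 2. Against empty vector replicate 1 alone, both IL-27 vector libraries were lower for 12 of 16, beside 29.4% of all genes.

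The leading lower genes added other stromal and secreted products. Pdgfrl, a PDGF receptor-like protein, was at 4.49 and 1.81 CPM with the empty vector and at 0.400 and 0.430 CPM with the IL-27 vector (-2.92 ± 0.71; DESeq2 adjusted p = 0.0104). Efemp1, encoding a fibulin of elastic fibres, was at 198 and 148 CPM with the empty vector and at 40.8 and 84.3 CPM with the IL-27 vector (-1.47 ± 0.43). Enpp2, encoding autotaxin, which makes lysophosphatidic acid, was at 29.6 and 23.1 CPM with the empty vector and at 8.69 and 6.97 CPM with the IL-27 vector (-1.75 ± 0.47). Enpp2 had the closest replicates of these 3. Col11a1, a fibrillar collagen of reactive stroma, was at 1.86 and 3.10 CPM with the empty vector and at 0.103 and 0.525 CPM with the IL-27 vector (-2.98 ± 0.91). Scin, an actin-severing protein, was at 34.5 and 18.9 CPM with the empty vector and at 7.22 and 8.85 CPM with the IL-27 vector (-1.73 ± 0.45). Tdrkh, a Tudor domain protein of germline small RNA pathways, was at 8.74 and 7.57 CPM with the empty vector and at 2.41 and 2.96 CPM with the IL-27 vector (-1.60 ± 0.42). Ggh, a folate-processing enzyme, was at 46.9 and 47.3 CPM with the empty vector and at 22.0 and 19.8 CPM with the IL-27 vector (-1.17 ± 0.35). Tdrkh and Ggh had the closest replicates of these. Zbed5 was at 5.50 and 4.30 CPM with the empty vector and at 1.37 and 1.08 CPM with the IL-27 vector (-2.00 ± 0.56), and lay at -2.03 ± 0.60 from the mean of the other 5 conditions (nominal). The remaining leading lower genes, Kirrel3, Gxylt2 and Scn7a, had log2 differences from -2.17 to -1.72. Of the 12 leading lower genes, 8 had a negative vector difference in each of the other 5 conditions. The matching share over all genes is not given here, so this count only describes.

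Matrix-degrading and signalling genes were divided. Plaur, the urokinase receptor, was at 81.1 and 38.7 CPM with the empty vector and at 143 and 149 CPM with the IL-27 vector (1.28 ± 0.42, nominal), and it was the only one of 12 matrix protease genes with an unadjusted p under 0.05. Phlda1, a feedback gene of RAS-MAPK signalling, was at 44.7 and 25.7 CPM with the empty vector and at 75.5 and 89.2 CPM with the IL-27 vector (1.23 ± 0.45, nominal). Over the 16 RAS-MAPK feedback genes 3 lay above and 5 below without overlap, and the median was -0.01. Id1, a target of BMP signalling, was at 1.22 and 0.427 CPM with the empty vector and at 3.17 and 2.89 CPM with the IL-27 vector (1.88 ± 0.66, nominal), while the 15 TGF-beta and Wnt genes had 4 above and 5 below. Each of these single genes had its lowest value in empty vector replicate 2. Of 13 endothelial markers 4 lay above and none below, and Plvap, a protein of capillary openings, was at 3.15 and 0.940 CPM with the empty vector and at 8.40 and 13.3 CPM with the IL-27 vector (2.40 ± 0.84, nominal).

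Leading genes of stratified epithelium followed the keratinocyte markers of IL-27 vector replicate 1. Krt80, an epithelial keratin, was at 7.68 and 7.35 CPM with the empty vector and at 41.7 and 22.1 CPM with the IL-27 vector (2.09 ± 0.47). Col17a1, a collagen of hemidesmosomes, was at 1.60 and 2.81 CPM with the empty vector and at 37.5 and 5.22 CPM with the IL-27 vector (3.28 ± 0.73). Krt80 was high in both IL-27 vector libraries, and Col17a1 mainly in replicate 1. Cnfn, encoding cornifelin of the cornified layer, was at 0.332 and 0.185 CPM with the empty vector and at 25.1 and 2.84 CPM with the IL-27 vector (5.74 ± 1.25). Sbsn, encoding suprabasin, was at 3.86 and 3.17 CPM with the empty vector and at 90.9 and 6.04 CPM with the IL-27 vector (3.78 ± 0.89). Sprr1b, a cornified envelope protein, was at 0.615 and 0.555 CPM with the empty vector and at 28.9 and 1.05 CPM with the IL-27 vector (4.67 ± 1.13). For the last 3 genes replicate 2 was far closer to the controls than to replicate 1. Dsc3, a desmosomal cadherin, had 0 counts with the empty vector and was at 20.1 and 0.161 CPM with the IL-27 vector, at least 254-fold higher by group means against a floor of 3 counts per library. Of 13 keratinocyte markers 8 were nominal, and none did without IL-27 vector replicate 1. Only 3 of the 13 lay above both controls in both IL-27 vector libraries and 1 lay below. The part of skin RNA in the other differences of that library was not tested.

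Skeletal muscle genes lay above both controls in both IL-27 vector libraries for 14 of 14 members, yet none was nominal. Acta1, the skeletal muscle actin, was at 0.0738 and 58.9 CPM with the empty vector and at 109 and 87.9 CPM with the IL-27 vector (1.74 ± 1.50). The control libraries thus differed from each other far more than empty vector replicate 2 differed from the IL-27 vector libraries. The other 10 empty vector libraries had a median list sum of 66.5 CPM, so replicate 1 was near their usual level and replicate 2 far above it. Empty vector libraries with cabozantinib plus IL-27, which also held Ngp, were at 628 and 537 CPM. Without empty vector replicate 2, 13 of the 14 were nominal. In the other 5 conditions the mean vector difference of these genes had a median of 6.17, against 1.75 under anti-PD-L1, and 9 of 14 departed from it at an unadjusted p under 0.05, all lower. Globin genes were high in IL-27 vector replicate 2 alone. Hba-a1 was at 3.99 and 3.09 CPM with the empty vector and at 5.54 and 112 CPM with the IL-27 vector, and 89.3% of the 50-base stretches of its copy Hba-a2 are shared with it. Of the 6 erythroid markers 4 were nominal in the higher direction, and none did without IL-27 vector replicate 2.

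Across genes, the vector difference under anti-PD-L1 resembled that in some conditions and not in others. Over 13750 genes Pearson's r was 0.635 with docetaxel, 0.469 with cabozantinib plus IL-27, 0.460 with cabozantinib, 0.227 with IL-27 and 0.00462 with media. Spearman's rho gave another order, at 0.319 with docetaxel, 0.521 with cabozantinib plus IL-27, 0.561 with cabozantinib, 0.169 with IL-27 and -0.103 with media. The pairs share no library, but genes are not independent and libraries share depth and composition effects, so these values only describe. With docetaxel the keratinocyte markers summed to 4158 and 4011 CPM with the IL-27 vector and to 2.38 and 6.00 CPM with the empty vector. Under anti-PD-L1 they summed to 735 CPM in IL-27 vector replicate 1. The part of these markers in the correlation with docetaxel was not tested. Media was the least alike by both measures. Immediate early genes had a median of 0.99 under anti-PD-L1 and of -0.96 in media. With cabozantinib, docetaxel, IL-27 and cabozantinib plus IL-27 the medians were 0.72, 0.69, 0.88 and 1.46. None of the 15 departed from the mean of the other 5 conditions at an unadjusted p under 0.05. In media Ngp marked both IL-27 vector libraries and neither control. With cabozantinib plus IL-27 it marked both controls and neither IL-27 vector library. In these conditions the vector and the library feature marked by Ngp cannot be told apart. The 12 leading higher genes included 5 with a positive vector difference in each of the other 5 conditions, again without the matching share over all genes.

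**Figure D4:**
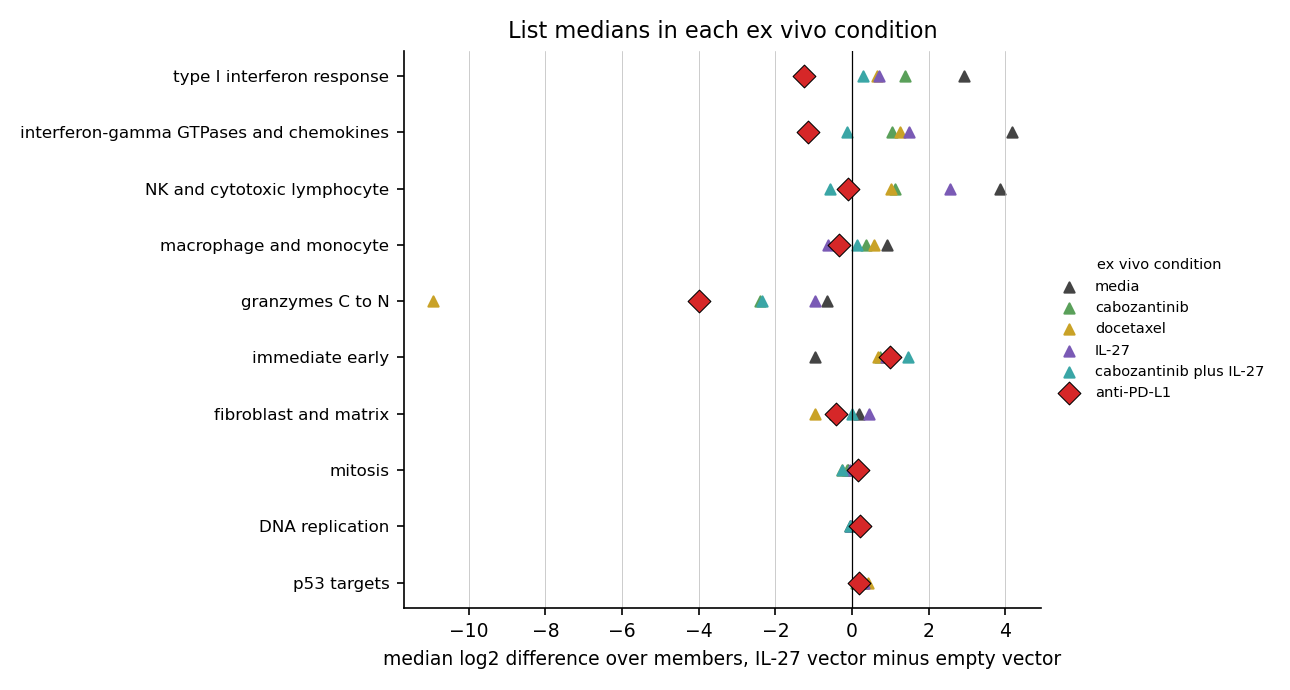
Median log2 difference between vectors over the members of 10 lists (horizontal axis, IL-27 vector minus empty vector) under anti-PD-L1 (diamonds) and in the other 5 ex vivo conditions (triangles). Both interferon lists are negative under anti-PD-L1, at -1.25 and -1.16, where the type I list is positive in the other 5 conditions. Granzymes C to G are negative in all 6, and medians far below 0 there hold genes at 0 counts in 1 group, whose fitted size is not a bound.

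The remaining lists held at most 3 genes each with an unadjusted p under 0.05, and some held few informative members. Some shares differed from those of all genes, but on few members. Cytosolic ribosomal protein genes lay above for 27.3% (6 of 22) and hypoxia and glycolysis genes below for 25% (4 of 16), beside 16.9% and 15.6% of all genes. Neither list held a gene with an unadjusted p under 0.05, so these shares only describe. Of 17 genes of the unfolded protein and integrated stress response 3 lay above and 3 below without overlap. Of 16 hypoxia and glycolysis genes none lay above and 4 below, led by Bnip3, a mitochondrial autophagy receptor, at 612 and 662 CPM with the empty vector and 496 and 408 CPM with the IL-27 vector (-0.49 ± 0.34). Of 12 NRF2 targets and metallothioneins 2 lay above and 1 below, of 15 cholesterol synthesis genes none above and 1 below, and of 16 BCL2 family genes 3 above and 3 below. None of these 5 lists held a gene with an unadjusted p under 0.05. Of 20 NF-kB and inflammatory cytokine genes 3 lay above and 1 below. Of 12 acute phase and STAT3 genes none lay above and 2 below, and its only gene with an unadjusted p under 0.05 was Lcn2, an iron-binding protein of neutrophil granules and epithelium. Lcn2 was at 0.541 and 4.61 CPM with the empty vector and at 0.387 and 0.511 CPM with the IL-27 vector, so its high value was in the library with neutrophil transcripts. Of 22 cytosolic ribosomal protein genes 6 lay above and 3 below, with a median of -0.05. Of 16 epithelial and mesenchymal identity genes 3 lay above and 1 below, and 3 were nominal, all higher. They were the epithelial genes Esrp1 and Cldn4, and Snai1, a repressor of epithelial genes, so they did not all point to the same identity. Snai1 was at 7.09 and 3.00 CPM with the empty vector and at 10.4 and 14.3 CPM with the IL-27 vector (1.29 ± 0.51, nominal). The B and plasma cell, mast cell, adipocyte, Schwann cell and prostate lists had 1, 0, 3, 0 and 0 members above and 0, 0, 0, 2 and 1 below. The adipocyte, Schwann cell and prostate lists each held 1 gene with an unadjusted p under 0.05. Among listed genes, Cxcl15, Gzmk, Gzmn and Pbsn were not tested, with 0 counts in all 4 libraries. The ribosomal RNA list could not be tested, since its 1 symbol found in the table had 0 counts in these libraries.

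**Figure D5:**
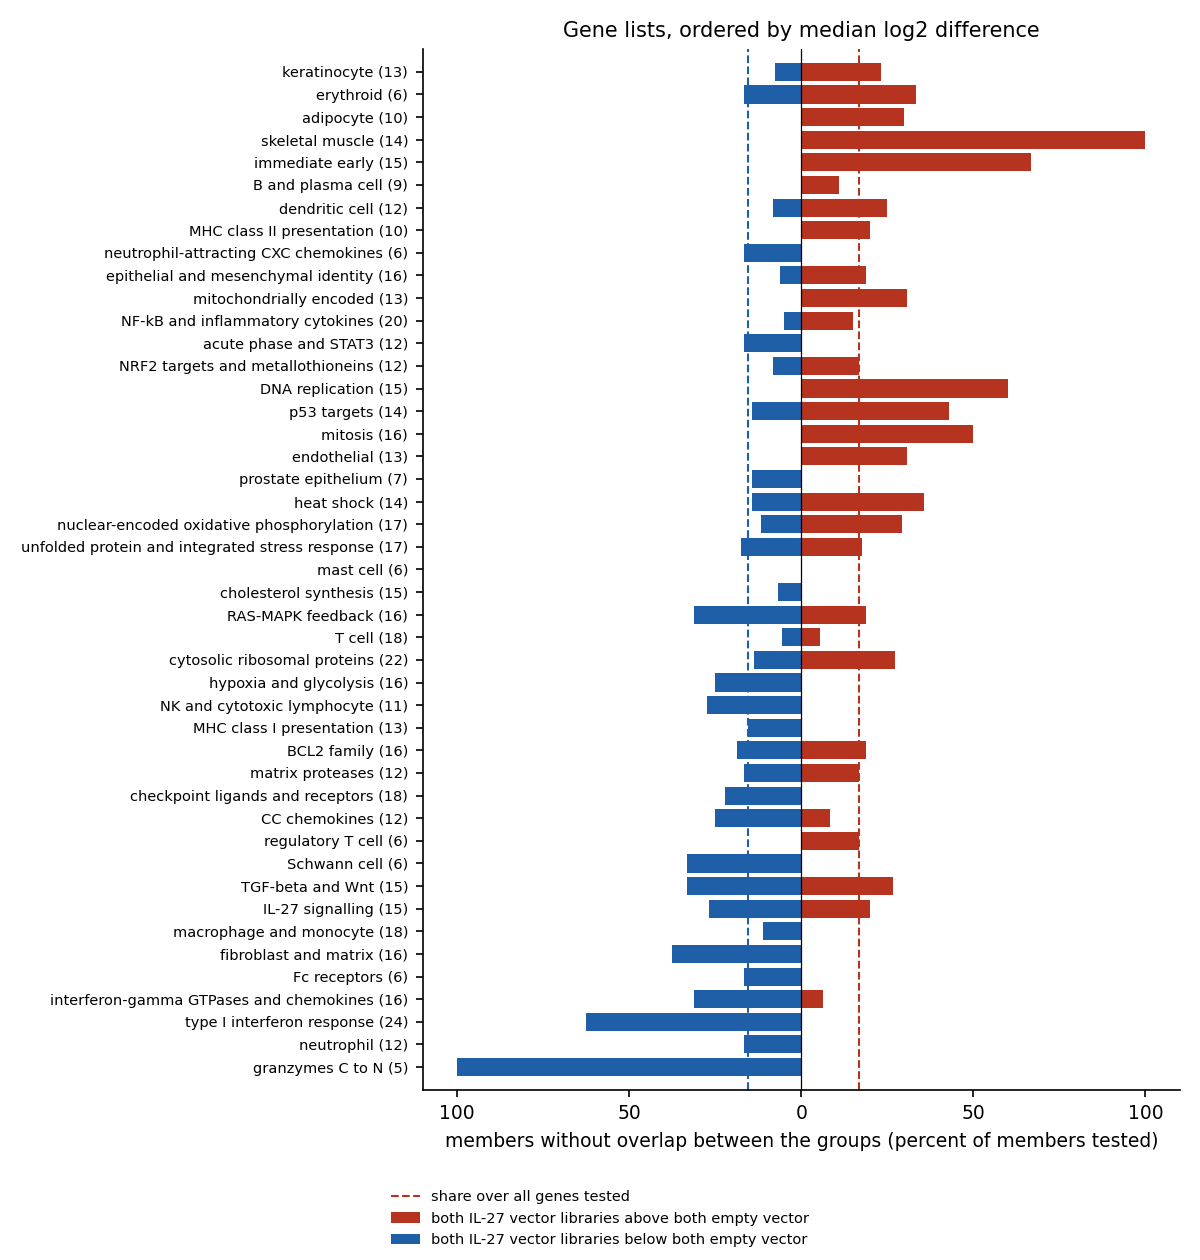
Share of the members tested (number in brackets) for which both IL-27 vector libraries lay above both empty vector libraries (red, right) or below both (blue, left), in percent, with lists ordered by median log2 difference. Dashed lines mark the shares over all genes tested, 16.9% above and 15.6% below. Skeletal muscle and immediate early genes reach furthest to the right, and granzymes C to G and the type I interferon genes furthest to the left.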

How the data were processed

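Estimated counts per gene for 23 bulk RNA libraries were deposited by the authors in 1 table. The submitters' processing notes name GRCm38 as the build and list HISAT2, StringTie, cutadapt and DESeq2. Versions, settings and the counting step are not given in the sources. The deposited values are whole numbers, and 143 genes hold 1 same nonzero value in every library, so they are not plain read counts. Counting by strand is not stated, so overlapping antisense genes are uncertain.

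Libraries were grouped by title. In R 4.3.3, edgeR 4.0.16 was run with TMM scaling, filterByExpr and a quasi-likelihood fit of 12 groups over 23 libraries (11 residual and 5.75 prior degrees of freedom, biological coefficient of variation 0.62). The contrast was IL-27 vector minus empty vector under anti-PD-L1, with Benjamini-Hochberg adjustment over 24440 of 55401 genes. A second contrast subtracted the mean of the 5 other vector differences. SE is the absolute log2 difference over the square root of F. DESeq2 1.42.0, the filter, scaling, a GC offset, a replicate block and leaving out libraries were alternatives. The removal of other-tissue or ribosomal RNA genes, the removal of a media or docetaxel library, comparisons with empty vector replicate 1 alone or IL-27 vector replicate 2 alone, and list sums without their most abundant member were added after seeing the data. The model was tested on simulated data.

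Named genes were the 12 leading genes per direction, up to 4 of smallest p per list, and 19 fixed genes, with exceptions stated. The lists, 46 with 597 genes, and the comparison were chosen with earlier results of these data known. GENCODE supplied symbols, and 107 identifiers share a symbol with another. With 2 libraries against 2, single values were given no permutation test. Some listed genes are not reported here.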

Additional observations from a re-analysis of the deposited data

Results flagged for a closer look

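For 7 gene lists the summed level separated the vectors in one direction under anti-PD-L1 and in the other direction in another ex vivo condition: in each case both IL-27 vector libraries were on one side of both empty vector libraries, and on the opposite side in the other condition. None of these differences between conditions was tested on the sums. Values are the log2 ratio of the mean sums, IL-27 vector over empty vector. The type I interferon response was at -1.09 under anti-PD-L1, 2.40 in media and 0.53 with docetaxel. The dendritic cell markers were at 0.59 under anti-PD-L1 and -1.11 in media, but Fscn1, which tumour cells also make, held 61.4 to 90.0% of that sum under anti-PD-L1. Without Fscn1 the ratio was -0.45 under anti-PD-L1 and 0.59 in media, and Flt3 of the same list had a difference of -1.32 under anti-PD-L1. Immediate early genes were at 0.90 under anti-PD-L1 and -0.84 in media. They were at 1.37 with cabozantinib, 0.65 with docetaxel, 0.86 with IL-27 and 1.54 with cabozantinib plus IL-27. Checkpoint ligands and receptors were at -0.19 under anti-PD-L1 and 0.49 in media, and the BCL2 family was at -0.14 and 0.22. Without Mcl1, its most abundant member, the BCL2 family was at -0.06 and -0.17. IL-27 signalling genes were at -0.24 under anti-PD-L1 and 0.28 with docetaxel, and without Jak1 the sums under anti-PD-L1 overlapped. Mitosis genes were at 0.23 under anti-PD-L1 and -0.21 with cabozantinib plus IL-27. In media, IL-27 vector replicate 2 holds the highest interferon sum of the 23 libraries, at 1710 CPM. Replicate 1 there was at 210 CPM, against 183 and 180 CPM with the empty vector.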

How the results depend on the processing

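Under most alternatives edgeR called no gene, as in the main analysis. This held for another scaling (RLE size factors), a filter of 1 CPM in 2 of the 4 libraries, the 4 libraries fitted alone (smallest adjusted p 0.0667), counts divided by 4, the GC offset, and removal of ribosomal, mitochondrial or other-tissue genes. It also held without a media or a docetaxel library. The exceptions were DESeq2, which called 44 genes for the vector difference and 11 for its departure from the other conditions, and the fit with no filter on low counts, which called 342 and 200. The cause was not tested. Leaving out each of the 4 libraries in turn gave 0 to 0 called genes for both contrasts, and 460 to 1024 genes with an unadjusted p under 0.05 for the vector difference. The smallest adjusted p there was 0.0594, without IL-27 vector replicate 2.

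The replicate numbers were also entered as a replicate block, which called 0 genes for either contrast, with 735 genes at an unadjusted p under 0.05. Same-numbered libraries deviated from their group means with a correlation of -0.08 over 13750 genes. With 1 pair of libraries per vector, this value cannot decide whether same-numbered libraries shared a day or a processing step.

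The differences of 74 named genes were recomputed under every alternative that could be fitted, and 9 changed sign under at least 1. Leaving out single libraries, Cxcl1 ranged from -0.20 (without IL-27 vector replicate 2) to 2.24, Cd274 from -1.03 to 0.60 (without empty vector replicate 2, and 0.24 without IL-27 vector replicate 1), Il27ra from -0.76 to 0.19 (without empty vector replicate 1), and Socs3 from -0.053 (without IL-27 vector replicate 2) to 0.755. Egr1 ranged from -0.49 (without IL-27 vector replicate 2, and -0.024 without empty vector replicate 2) to 0.54. Without empty vector replicate 2 the differences of Cd86, Klrd1, Lyz2 and Rsad2 were above 0, and their ranges were -2.02 to 0.49, -8.05 to 5.81, -1.50 to 0.065 and -3.29 to 0.41. With the GC offset Socs3 was at -0.040 and Egr1 at -0.20. For the distance from the other conditions, Acta1 ranged from -5.43 to 4.18 (without empty vector replicate 2) and Sbsn from -1.10 (without IL-27 vector replicate 1) to 2.82. Over the alternatives, 49 list medians moved by more than the spread between replicates, in 28 of 45 lists, and 709 did not. With 2 libraries a side and a biological coefficient of variation of 0.62, depth was not the limit for the abundant genes, while Il27, Ebi3, Cd8a and Ifng were at or near 0 counts.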
